A study of Mus musculus with 12 samples.

Results

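Prostaglandin E2 is made, sensed and removed by the products of a small set of genes, and the transcripts of 10 of them were followed in acutely cut mouse auditory cortex: the cyclooxygenases Ptgs1 and Ptgs2, the prostaglandin E synthases Ptges, Ptges2 and Ptges3, the receptors Ptger1, Ptger2, Ptger3 and Ptger4, and the degrading enzyme Hpgd. The set was chosen by the FPKM of Ptgs2, whose higher level in cocktail than in control was already known from these libraries, and the other genes were added for their place in the pathway. Members were found by gene symbol, and each of the 10 had a single row among the 20989 loci that every library listed. Because the comparison of cocktail with control chose Ptgs2, that comparison is a description for the members: their place in a fit across all loci is given, with no p for any of them, and their calls support nothing.

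The tissue came from 6 C57bl6/J mice aged 4 weeks. Coronal slices 350 µm thick recovered for 15 min, were divided at the midline and then rested for 45 min in artificial cerebrospinal fluid (aCSF), after which the hemispheres of each mouse went separate ways. The control hemisphere stayed for 1 h in plain aCSF, and the other spent that 1 h in aCSF with a cocktail of 50 µM (-)-bicuculline methiodide, which blocks GABA-A receptors, 100 µM DL-norepinephrine, 50 µM carbamoylcholine, a cholinergic agonist, 100 µM dopamine, 40 µM ascorbic acid and 100 µM serotonin. Per the study's methods, 1 h in plain aCSF followed for both, and the auditory cortex was then dissected for poly-A RNA sequencing. There were 6 control and 6 cocktail libraries, 1 of each per mouse, so the spread is between animals, and both groups share the slicing and the incubation: no library of unsliced cortex was analysed here. The cocktail was given whole, so its agents cannot be told apart.

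Arachidonate freed from membrane lipids is turned by a cyclooxygenase into prostaglandin H2, and a terminal synthase turns this into prostaglandin E2. Ptgs1 encodes the constitutive cyclooxygenase (COX-1). Ptgs2 encodes the inducible enzyme (COX-2), which in the cortex is made by excitatory neurons and is known as an immediate-early gene of synaptic activity. Prostaglandin E2 acts on G-protein-coupled receptors, of which EP1 (Ptger1) raises calcium, EP2 (Ptger2) and EP4 (Ptger4) raise cyclic AMP and EP3 (Ptger3) lowers it, and Hpgd oxidizes it to an inactive form.

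The DNA around the start of Ptgs2 is shown beside that of Ptgs1 because they are the inducible and the constitutive gene of the same reaction. Each entry below holds the 250 bases before the RefSeq transcript start (GRCm38.p6), 5′ to 3′ on the plus strand, with matches to the motifs searched in capitals. The Ptgs2 entry lies at chr1:150099781-150100030 and the Ptgs1 entry at chr2:36230176-36230425.
Ptgs2: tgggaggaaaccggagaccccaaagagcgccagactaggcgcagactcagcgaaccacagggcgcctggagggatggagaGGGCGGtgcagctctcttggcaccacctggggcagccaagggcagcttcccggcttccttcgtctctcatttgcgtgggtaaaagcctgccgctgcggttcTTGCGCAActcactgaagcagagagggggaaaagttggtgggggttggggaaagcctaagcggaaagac
Ptgs1: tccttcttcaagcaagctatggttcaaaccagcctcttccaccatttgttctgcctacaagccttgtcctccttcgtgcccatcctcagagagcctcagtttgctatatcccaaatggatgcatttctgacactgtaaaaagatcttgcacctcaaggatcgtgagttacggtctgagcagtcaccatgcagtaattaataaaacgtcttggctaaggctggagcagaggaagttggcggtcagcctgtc
In 300-base entries that reach 50 bases past the start, 8 motifs were searched on both strands: the cyclic AMP response element TGACGTCA, its half-site CGTCA, the E-box CACGTG, the AP-1 site TGAGTCA, the NF-kappaB site GGGACTTTC, the C/EBP site TTGCNNAA, TATAAA and the GC box GGGCGG. Ptgs2 held matches to 4 of them. A GC box stood at -170 to -165 from the start and a C/EBP site at -69 to -62, and a CRE half-site at 14 to 18 after the start overlapped an E-box at 17 to 22. The 30 bases below, chr1:150100032-150100061, hold that overlapping pair in capitals. They lie between the RefSeq start at 150100031 and the later start that the deposited locus uses, 150100124.
Ptgs2 CRE half-site and E-box: gagtcaccactaCGTCACGTGgagtccgct
Ptgs1 held a match to 0 of the 8 motifs. Of all 32851 entries, 20.8% held the half-site, 7.15% the E-box, 10.8% the C/EBP site and 35.7% the GC box, so each of these matches is common on its own. Among the 9 members with an entry, the E-box was also found in Ptges2, the half-site in Ptges3, a C/EBP site in Ptger2, and GC boxes in Ptges, Ptges3, Ptger3, Ptger4 and Hpgd. A match is a run of letters and not a shown binding site.

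At the other end of the transcript, the pentamer AUUUA, searched as its DNA letters, is the core of AU-rich elements that are known to shorten the life of messenger RNAs. The RefSeq-matched GENCODE transcript of Ptgs2 had 14 copies in a 3′ UTR of 2445 bases, and 2.33% of 19385 annotated genes had as many. The other members had between 0 and 6 copies, with 0 in Ptgs1, Ptges and Ptger1. Ptgs2 had 5.73 copies per kilobase of UTR, a density that 5.39% of genes reached, and Hpgd with 4.77 and Ptger4 with 4.06 came close to it. The 30 bases below, chr1:150105794-150105823 on the plus strand, are bases 12 to 41 of that UTR and are shown because they hold 4 of the copies, in capitals, of which neighbours share letters.
Ptgs2 3′ UTR: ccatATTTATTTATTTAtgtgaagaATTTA

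The values are FPKM, read fragments scaled by transcript length in kilobases and by mapped depth, a scale per length on which genes can be set against each other. The libraries held between 10601067 and 19768881 reads as recovered from the files' confidence bounds. The control library of mouse 1 stood apart: its loci deviated from the other control libraries by a median of 0.198 on the log2 scale. In the other 11 libraries this deviation from their group was 0.076 to 0.104. Results that turn on mouse 1 are given with and without it, or mouse by mouse for Ptger4. Differences are cocktail minus control in log2(FPKM + 1) within a mouse, fitted with limma over the 12032 loci with a mean of at least 1 FPKM. The pseudocount of 1 makes differences of low genes look smaller than they are. Of these loci, 1.5% passed an adjusted p of 0.05 in either direction, 1.22% as higher and 0.274% as lower. Of the 10 members, 8 passed the filter on low levels and Ptger2 and Ptger4 did not.

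Ptgs2 was the single member past the threshold, as higher in cocktail, where 1.22% of all loci were, and nothing is read from that count since Ptgs2 was chosen for it. Of the other 7 members over the filter, 6 had a negative difference and all 7 lay within 0.27 of 0 in log2(FPKM + 1). The low genes among them lay farther from 0 on other scales: Hpgd was at -0.48 and Ptges at -0.29 with a pseudocount of 0.1, and at -0.47 and -0.31 with voom on recovered reads. The median difference of the 8 members over the filter was -0.04, beside 0.0076 over all loci tested. Nothing is read from the 6 negative signs or from this median, since the filter shaped them. Hpgd passed it through its control level (1.32 FPKM on average, and 0.908 FPKM in cocktail). Ptger2 and Ptger4, which it left out, had positive differences in a fit without it (0.07 and 0.09). The groups of libraries did not overlap for Ptgs2 alone among the members, and for 0.914% of all loci.

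**Figure D1:**
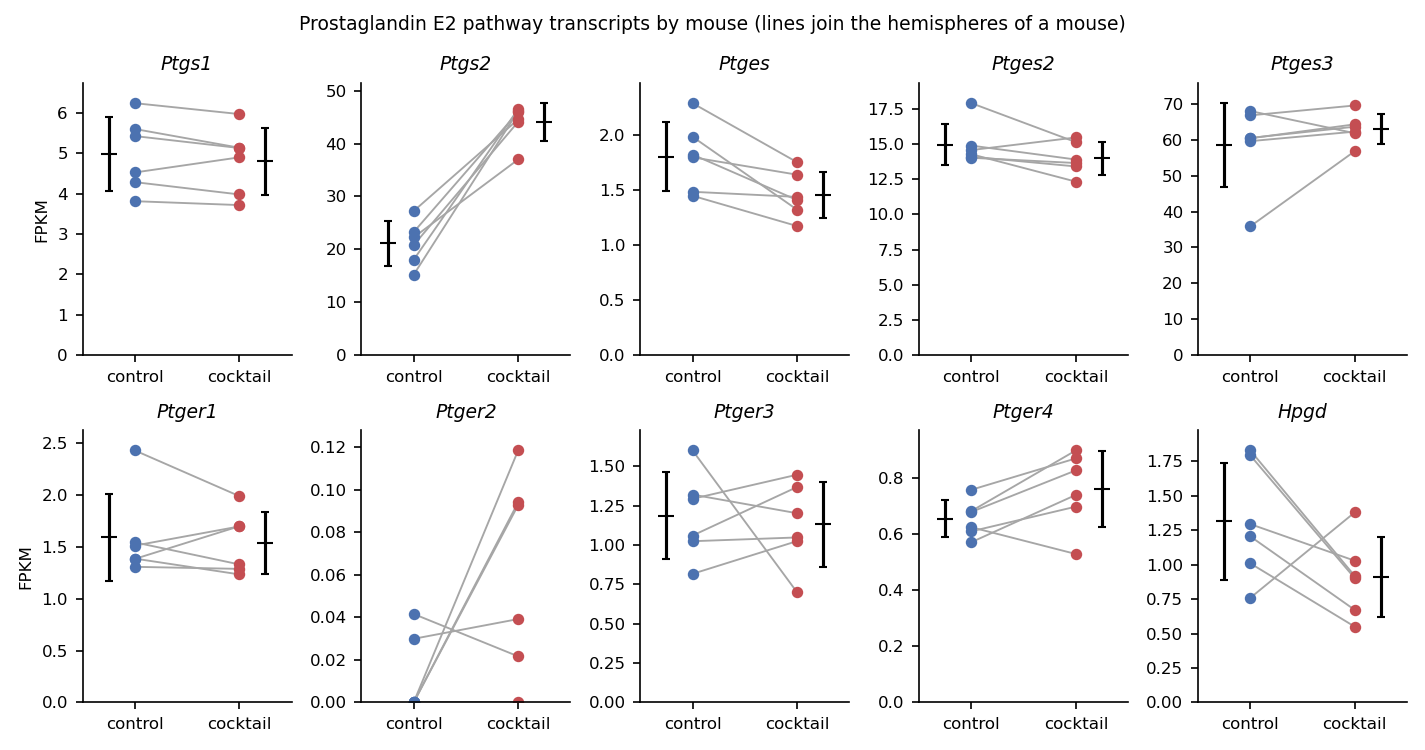
FPKM of the 10 members in the control (blue) and cocktail (red) hemisphere of each of 6 mice, each panel with its own linear axis from 0; grey lines join the hemispheres of a mouse and black bars give the mean and SD of 6 libraries (not drawn for Ptger2, which has libraries at 0). For Ptgs2 every cocktail library (37.0 to 46.5 FPKM) lies above every control library (15.2 to 27.2 FPKM), and in the other panels the groups overlap.

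Ptgs2 (chr1:150100124-150108012, plus strand) stood at 15.2, 18.0, 22.3, 20.8, 23.3 and 27.2 FPKM in the control hemispheres of mice 1 to 6. In their cocktail hemispheres it stood at 46.1, 46.5, 37.0, 44.1, 46.0 and 44.6 FPKM. All cocktail values lay above all control values, and 5 of the 6 cocktail values fell in a narrow band of 44.1 to 46.5 FPKM while the control values were spread. The means were 21.1 ± 4.19 FPKM in control and 44.0 ± 3.58 FPKM in cocktail (SD, n = 6 each), a ratio of means of 2.08. The coefficient of variation was 19.8% over control and 8.14% over cocktail libraries, where counting error alone, with 1228 to 3545 reads per library, is 2.29%.

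Within mice the Ptgs2 difference was 1.54, 1.32, 0.71, 1.05, 0.95 and 0.69 on the log2 scale for mice 1 to 6. It was positive in 6 of 6 mice, and the smallest values came from mouse 6, with the highest control level, and mouse 3, with the lowest cocktail level. The fitted difference was 1.04 (SE 0.10, 95% interval 0.83 to 1.26), and 3 of the loci tested had a larger difference. Without mouse 1, whose control level was the lowest, it was 0.94. Control slices, cut and incubated like the others, were not low in Ptgs2: its control mean exceeded that of 72.2% of the loci tested.

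Ptgs1 (chr2:36230426-36252271) was lower than Ptgs2 in every library. Its levels were 4.29, 3.82, 4.53, 6.25, 5.43 and 5.61 FPKM in control and 3.98, 3.72, 4.90, 5.98, 5.13 and 5.14 FPKM in cocktail, for mice 1 to 6. The hemispheres of a mouse lay close together and the mice lay apart: the mouse means spanned 0.58 on the log2 scale, while the largest difference within a mouse was 0.11. The fitted difference was -0.04 (SE 0.05, 95% interval -0.16 to 0.07). For Ptgs2 it was the other way round, with mouse means spanning 0.38 and within-mouse differences of 0.69 to 1.54.

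As a share of the FPKM of both cyclooxygenases, Ptgs2 made up 76.9% to 83.1% in control libraries and 88.1% to 92.6% in cocktail libraries. The means were 80.8 ± 2.68% and 90.1 ± 1.88% (SD, n = 6 each), and the share was higher in the cocktail hemisphere of every mouse. Ptgs2 was 4.28 ± 0.690 times Ptgs1 in control and 9.44 ± 2.13 times in cocktail. Mice 1 and 2 had the largest cocktail ratios, 11.6 and 12.5, and they were also the mice with the lowest Ptgs1 in cocktail. These shares restate the chosen comparison and carry no test.

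**Figure D2:**
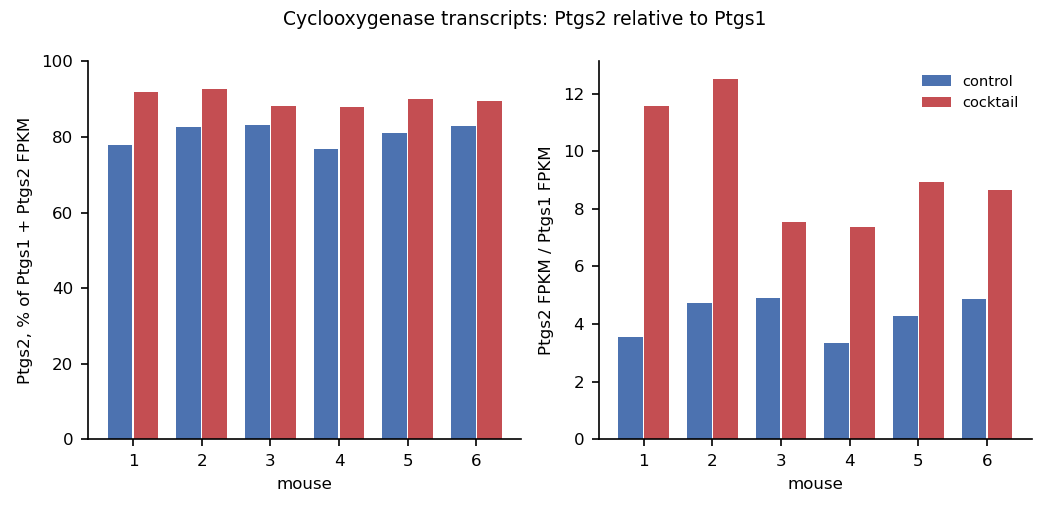
Ptgs2 as a percentage of the summed FPKM of Ptgs1 and Ptgs2 (left) and as a ratio to Ptgs1 (right) for each of 6 mice, with bars from 0 for the control (blue) and cocktail (red) hemisphere. The share lies between 76.9% and 83.1% in control and between 88.1% and 92.6% in cocktail, and the red bar is taller in every mouse.

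The terminal synthases differed from each other in level far more than between hemispheres. Ptges3 (chr10:128058982-128077254), the cytosolic synthase, which is also known as the HSP90 cochaperone p23, was the most abundant member. Its lowest, median and highest levels were 35.9, 60.4 and 68.0 FPKM in control and 56.8, 62.9 and 69.5 FPKM in cocktail. The groups overlapped, and the value of 35.9 FPKM belonged to the control library of mouse 1. The difference was 0.13 (SE 0.08, 95% interval -0.05 to 0.31), and without mouse 1 it was 0.03.

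Ptges2 (chr2:32395890-32402740), the membrane-associated synthase 2, ran at 14.0, 14.4 and 17.9 FPKM (lowest, median, highest) in control and at 12.3, 13.8 and 15.5 FPKM in cocktail. The levels overlapped, and the cocktail hemisphere was lower in 5 of 6 mice. The difference was -0.09 (SE 0.05, 95% interval -0.21 to 0.03), or -0.06 without mouse 1.

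Ptges (chr2:30889471-30903297, minus strand), the microsomal synthase that is known to be induced together with COX-2 in inflammation, was the lowest of the synthases. Its control levels were 1.98, 1.48, 1.45, 2.29, 1.80 and 1.82 FPKM for mice 1 to 6. Its cocktail levels were 1.32, 1.44, 1.17, 1.75, 1.64 and 1.41 FPKM. The cocktail value was the smaller in 6 of 6 mice, although the groups overlapped. The difference was -0.19 (SE 0.06, 95% interval -0.33 to -0.05), opposite in sign to that of Ptgs2. That interval is not adjusted for the number of loci, and Ptges was not called. Ptges made up 2.46 ± 0.683% of the summed synthase FPKM in control and 1.86 ± 0.306% in cocktail, beside 77.0 ± 6.30% and 80.3 ± 1.84% for Ptges3.

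The 4 EP receptors were all low, and together they summed to 3.44 ± 0.542 FPKM in control and 3.49 ± 0.473 FPKM in cocktail (SD, n = 6 each). Ptger1 had the largest mean share of that sum in control, 45.9 ± 5.45%, before Ptger3 with 34.3 ± 5.49% and Ptger4 with 19.4 ± 3.63%. In cocktail the shares were 44.0 ± 4.77%, 32.1 ± 4.39% and 22.1 ± 4.75%, in the same order. With 16 to 73 reads per library behind each of these 3 genes, counting error alone averaged 17.9% to 19.3% of a value.

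Ptger1 (chr8:83666640-83670103) ranged from 1.31 to 2.43 FPKM in control (median 1.45) and from 1.23 to 1.99 FPKM in cocktail (median 1.51). The difference was -0.03 (SE 0.07, 95% interval -0.17 to 0.12) and went to 0.01 without mouse 1, so it had no stable sign.

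Ptger3 (chr3:157566892-157644758) ranged from 0.82 to 1.60 FPKM in control (median 1.18) and from 0.70 to 1.45 FPKM in cocktail (median 1.12). Mouse 2 held both the highest control and the lowest cocktail value. The difference was -0.04 (SE 0.10, 95% interval -0.25 to 0.18), and without mouse 2 it was 0.08.

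Ptger4 (chr15:5233399-5244187, minus strand) stood at 0.62, 0.57, 0.68, 0.68, 0.76 and 0.61 FPKM in control and at 0.53, 0.74, 0.83, 0.90, 0.87 and 0.70 FPKM in cocktail. The cocktail hemisphere was the higher in 5 of 6 mice, all but mouse 1, and the groups overlapped. A fit without the filter on low levels gave a difference of 0.09 (SE 0.04, 95% interval -0.01 to 0.18). The difference was -0.087 in mouse 1 and between 0.077 and 0.17 in the others. The fits with a mouse left out kept the filter, so they gave no value for Ptger4.

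Ptger2 (chr14:44988111-45003820) was close to absent at this depth. It was listed at 0 in 4 control libraries and 1 cocktail library, and no library exceeded 0.12 FPKM or 5 reads. A library at 0 allows up to 3 reads. Over all libraries of a group, 3 reads were recovered in control and 17 in cocktail. Scaled for depth this was a ratio of 5.58 with an exact 95% counting interval of 1.61 to 29.7, which covers counting error and not the spread between mice.

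Hpgd (chr8:56294552-56321046), 15-hydroxyprostaglandin dehydrogenase, starts the breakdown of prostaglandin E2. It stood at 1.01, 1.29, 0.76, 1.79, 1.21 and 1.83 FPKM in control and at 0.55, 1.03, 1.38, 0.90, 0.67 and 0.92 FPKM in cocktail, for mice 1 to 6. The cocktail value was the smaller in 5 of 6 mice and the larger in mouse 3, and the groups overlapped. The difference was -0.27 (SE 0.11, 95% interval -0.52 to -0.02), the largest among the members after Ptgs2, at 16 to 44 reads per library. The within-mouse differences of Hpgd themselves had an SD of 0.37 and ran from -0.56 to 0.44. Its mean of 1.11 FPKM passed the filter through the control level, 1.32 FPKM, since the cocktail mean was 0.908 FPKM. It was not called over all mice. Without mouse 3 it was -0.41 and passed the threshold in that refit alone of 13, and for the reason of the filter nothing is read from this.

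Ordered by mean control FPKM, the members ran Ptges3, Ptgs2, Ptges2, Ptgs1, Ptges, Ptger1, Hpgd, Ptger3, Ptger4 and Ptger2. In control libraries, 5 of the 9 neighbouring steps separated levels whose ranges did not overlap: Ptges3 from Ptgs2, Ptges2 from Ptgs1, Ptgs1 from Ptges, Ptger3 from Ptger4 and Ptger4 from Ptger2. An exact permutation test (sign flips over the 6 mice, two-sided) cannot go below p = 0.03125, which these 5 steps reached, and adjustment over the 9 steps gave p = 0.05625, so none passed 0.05. Ptgs2 lay above Ptges2 in 5 of 6 control libraries with overlapping ranges (exact permutation p = 0.0625, adjusted p = 0.09375). Ptges, Ptger1, Hpgd and Ptger3 were not separable in control by their ranges. In cocktail libraries the range of Ptgs2 lay clear of both neighbours, above Ptges2 and below Ptges3.

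The rest of the pathway was taken from 5 lists by function: enzymes that supply arachidonate, synthases of other prostanoids, other prostanoid receptors, transport and breakdown, and the lipoxygenase branch that competes for arachidonate. They held 47 loci, of which 29 were tested and 0 were called, either in limma, where 1.5% of all loci were called, or by voom on recovered reads, where 0.981% were. At an unadjusted p under 0.05, which 8.05% of all loci passed, there were 4: Pla2g15 and Dagla, which release lipids upstream, Tbxa2r, the thromboxane receptor, and Ptgfrn, which binds the prostaglandin F receptor. All 4 had negative differences, between -0.13 and -0.25, and adjusted p between 0.489 and 0.612, and they are named after their values were seen. Tbxa2r, at -0.25, passed the filter through control (1.20 FPKM on average, and 0.827 FPKM in cocktail), so nothing is read from its sign. The median difference over the 29 was -0.005, and 14 of them were positive.

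Among arachidonate enzymes 11 of 16 were tested, with the lipase Abhd12 at the highest level: a median of 130.1 FPKM in control and 130.2 in cocktail, and a difference of 0.00 (SE 0.04, limma adjusted p = 0.991). Pla2g4a encodes cytosolic phospholipase A2, the enzyme most often tied to COX-2, and is named here because it is the next gene to Ptgs2 on chromosome 1, 138839 bp away. It stood at 0.607 ± 0.189 FPKM in control and 0.644 ± 0.0928 FPKM in cocktail (SD, n = 6 each), under the filter, so it was not tested. Of the other synthases 7 of 9 were tested, and Ptgds, the brain prostaglandin D synthase, led them with medians of 341.6 FPKM in control and 350.3 FPKM in cocktail (difference 0.11, SE 0.09, adjusted p = 0.85). Ptgds thus had more FPKM than Ptges, Ptges2 and Ptges3 summed, in every library. The list of other receptors had 2 of 6 loci tested, the thromboxane receptor Tbxa2r and Ptgfrn, which binds the prostaglandin F receptor and is not itself a prostanoid receptor. Ptgfrn had the highest level of that list, with medians of 9.12 and 8.50 FPKM (difference -0.14, SE 0.06, limma adjusted p = 0.562). Transport and breakdown had 4 of 6 tested, led by the carrier Slco3a1 at medians of 8.58 and 8.84 FPKM (difference 0.02, SE 0.05, adjusted p = 0.966). The lipoxygenase branch had 5 of 10 tested, led by the leukotriene A4 hydrolase Lta4h at medians of 12.5 FPKM in both groups (difference 0.01, SE 0.05, adjusted p = 0.981).

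**Figure D3:**
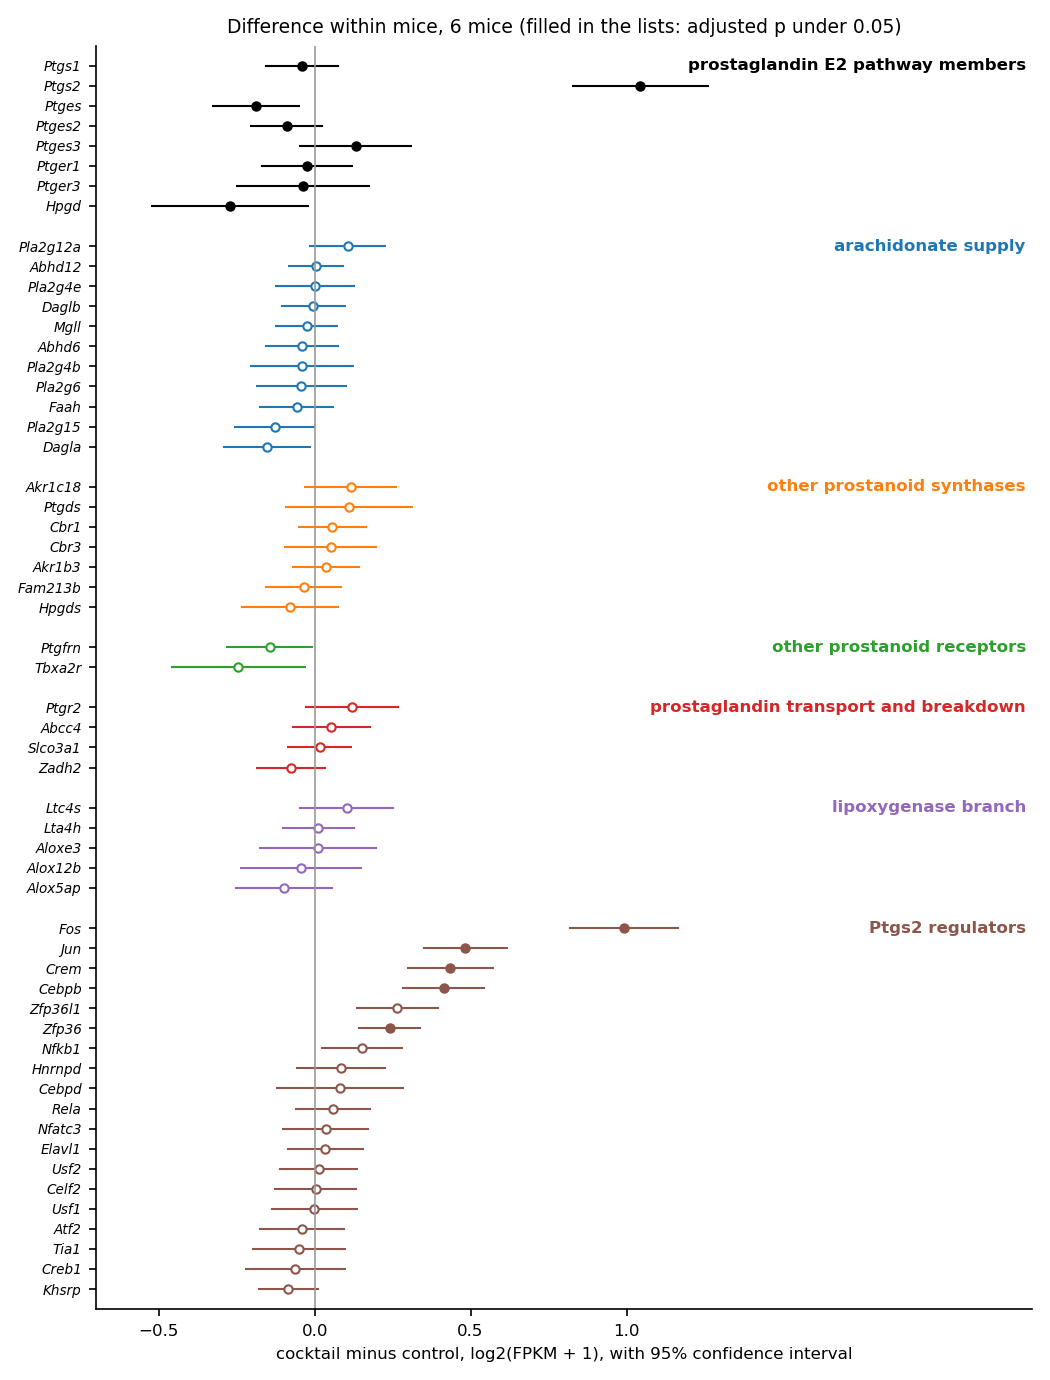
Within-mouse difference, cocktail minus control in log2(FPKM + 1), with its 95% confidence interval for the 8 members that passed the filter (black) and for 48 other pathway genes in 6 lists; in the lists a filled circle marks a limma adjusted p under 0.05. Ptgs2 lies at 1.04, the other members within 0.27 of 0, and the filled circles are 5 genes of the regulator list, from Zfp36 at 0.24 to Fos at 0.99.

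The sixth list held 19 genes that are known to control Ptgs2, as transcription factors at its promoter or as proteins that bind AU-rich RNA. All 19 were tested, and 5 were called higher in cocktail and 0 lower, where 1.22% and 0.274% of all loci were. A positive difference, called or not, was seen in 14 of the 19. The list was written with the response of these slices already known, so its count is not independent evidence of a direction. Its median difference was 0.06, beside 0.0076 over all loci tested.

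Fos, the AP-1 subunit, moved most. Its lowest, median and highest levels were 230.1, 332.0 and 400.6 FPKM in control and 568.5, 589.0 and 753.9 FPKM in cocktail, with no overlap (difference 0.99, SE 0.08, limma adjusted p = 2.92e-05). Its partner Jun rose from a median of 251.1 to 320.5 FPKM (0.48, SE 0.06, adjusted p = 0.00109). Crem, a cyclic AMP response factor with activating and repressing forms, rose from a median of 10.3 to 14.4 FPKM (0.44, SE 0.06, adjusted p = 0.00282). Each of these was higher in 6 of 6 mice.

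Cebpb, which binds C/EBP sites such as the one shown in the Ptgs2 promoter, rose from a median of 23.4 to 29.3 FPKM (0.41, SE 0.06, adjusted p = 0.00302). Zfp36 (tristetraprolin), which binds AUUUA repeats and is known to speed the decay of their messenger RNAs, had a difference of 0.24 (SE 0.04, adjusted p = 0.018), positive in 6 of 6 mice with overlapping groups. Its medians were 43.9 and 54.9 FPKM. It was the least firm of the 5: it missed the threshold in 5 of 13 refits, with adjusted p from 0.0171 to 0.999 over the 13. Zfp36l1, of the same family, came next at an adjusted p of 0.0578. The other 13 genes, with Creb1, Rela, Usf1, Usf2 and Elavl1 among them, did not pass. Cebpb missed it in 1 refit, on recovered reads (adjusted p = 0.24).

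By likeness, the loci nearest to Ptgs2 were looked for over all 12 libraries as the root mean square distance in log2(FPKM + 1), each locus centred on its own mean. The 5 nearest were Fos (0.145), Cd14 (0.160), which encodes a co-receptor for lipopolysaccharide, Npas4 (0.162), a neuronal activity-dependent transcription factor, Klf4 (0.170), a zinc-finger factor, and Dusp6 (0.176), an ERK phosphatase. The median distance of all loci was 0.558. The nearest other member was Ptges3 at 0.495, in place 716 of 12031, and Hpgd, at 0.716, was in place 11933. This measure follows the chosen comparison, since a locus that does not differ between the groups cannot be near. With any mouse left out, 3 to 5 of these 5 remained among the nearest.

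**Figure D4:**
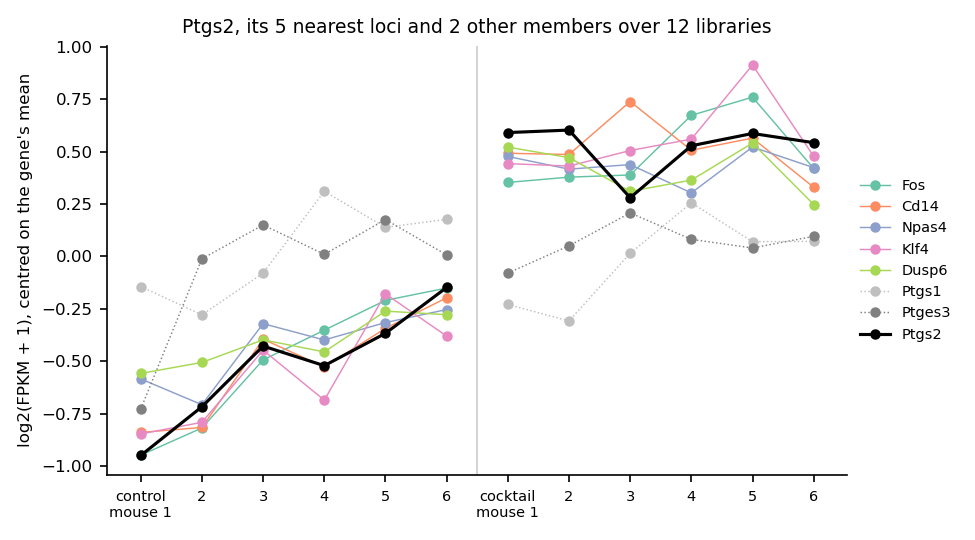
log2(FPKM + 1), centred on the mean of each gene over the 12 libraries, for Ptgs2 (black), its 5 nearest loci (coloured) and Ptgs1 and Ptges3 (grey, dotted), in the control (left) and cocktail (right) libraries of mice 1 to 6; lines only guide the eye, since the mice have no order. Ptgs2 and its 5 nearest loci are below 0 in every control library and above 0 in every cocktail library, with distances of 0.145 to 0.176.

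Over the 6 control libraries alone, which do not hold the comparison, the nearest loci were Hirip3 (0.051), Znhit6, Rnf113a2, Il1rn and Tbrg1 (0.059), against a median of 0.232 over all loci. Among the members, Ptges3 was nearest, at 0.198, followed by Ptgs1 at 0.204. This list did not hold: with a mouse left out, 0 to 2 of its 5 loci remained, and with a pseudocount of 0.1, 2 did.

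In 11 lists of markers of the cells the tissue could hold, from excitatory neurons to blood, 57 loci were tested and 0 were called in limma or by voom. At an unadjusted p under 0.05 there were 7, beside 8.05% of all loci. All 7 had positive differences: Gjb6 of astrocytes (0.13), Cdh5 of endothelium (0.18), Abcc9 of mural cells (0.14), Col1a1, Col1a2 and Dcn of meningeal fibroblasts (0.26, 0.13 and 0.23) and Hbb-b1 of red blood cells (0.45), named after their values were seen. Abcc9 passed the filter through cocktail (1.17 FPKM on average, and 0.976 FPKM in control), so nothing is read from its sign. The other fibroblast markers tested were Slc6a13 at 0.08 and Aldh1a2 at -0.12, and Hbb-b1 was the single blood marker over the filter. Signs were mixed in the other 3 lists of these markers: 6 of 7 astrocyte, 4 of 7 endothelial and 3 of 5 mural markers tested had positive differences. The lowest differences in these lists were -0.06, -0.12 and -0.05. Inhibitory neuron markers were positive in 7 of 7 (0.03 to 0.12) and oligodendrocyte markers in 6 of 6 (0.07 to 0.16). Excitatory neuron markers were positive in 4 of 8 and microglial markers in 6 of 9. With a mouse left out a single marker was called in 2 refits, Col1a1 without mouse 1 (0.31) and Hbb-b1 without mouse 2 (0.55). Their part in the levels of Ptgs2 was not tested. Summed microglial markers, 9 of 9 tested, ranged from 128.4 to 145.3 FPKM in control and from 127.2 to 158.7 FPKM in cocktail, and summed markers of perivascular macrophages, with 1 of 5 tested and every marker above 0, from 2.53 to 3.75 and from 2.91 to 4.19 FPKM. Excitatory neuron markers summed to 2561 to 2899 FPKM and 2431 to 2875 FPKM. In bulk tissue, fewer cells of a type and less RNA per cell cannot be told apart.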

How the data were processed

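Auditory cortex RNA from 6 control and 6 cocktail hemispheres of 6 mice was sequenced as single 50-base reads in 1 lane. Per the study's methods, the authors removed ribosomal reads with BWA 0.6.1, aligned the rest to mm10 with TopHat 1.4.1, allowing 1 placement and at most 6 mismatches, and estimated FPKM with bias correction in Cufflinks 1.3.0, with protein coding genes as the denominator. The deposited FPKM and their confidence bounds per locus and library were used. A deposited table of the authors' own comparison (HTSeq 0.6.1p1 counts, DESeq2 1.6.3 with mouse as a block), with fold changes, p-values and group means, was not used.

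Libraries were grouped and numbered by their labels. Reads were recovered as (2 × FPKM / (upper bound - FPKM)) squared; of 36048 values between 0.5 and 20 reads, 83.4% were within 0.05 of a whole number. log2(FPKM + 1) of loci with a mean of at least 1 FPKM was fitted with limma 3.58.1 (R 4.3.3) with an intensity trend and mouse as a block, two-sided, with Benjamini-Hochberg adjustment over 12032 loci and a threshold of 0.05; members under the filter came from a fit with no filter. Hemispheres of a mouse are paired by the animal; deviations from the group means correlated at 0.216 to 0.406 within a mouse (6 pairs) and at -0.420 to 0.445 between mice (30). Levels were ordered with an exact sign-flip test over mice. Python 3.11.15, numpy 2.4.6, pandas 2.3.3 and scipy 1.17.1 were used, and the fit was tested on simulated data. Alternatives were a pseudocount of 0.1, no filter, a filter of 5 FPKM, median-of-ratios scaling, no mouse block, loci with status OK, voom on recovered reads and leaving out each mouse. Intervals on reads cover counting error only. The libraries were strand specific, but whether the FPKM estimate used strand is not given in the sources used here, so reads of genes that overlap on opposite strands may not be told apart.

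The members and all lists were chosen with earlier results of these data known. Named were all members, each other pathway gene called, the gene with the highest mean in each list, and the 5 loci nearest to Ptgs2 over 12 and over 6 control libraries; others are marked where they stand. Promoter sequences and motifs came from RefSeq (GRCm38.p6), which held an entry for 9 of 10 members, and UTRs from GENCODE on GRCm38.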

Additional observations from a re-analysis of the deposited data

Results flagged for a closer look

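Of 32 sets of 6 values (the level of each of 10 members in each group, its differences within mice, and the Ptgs2 share of cyclooxygenase FPKM in each group), 7 had a value far from the other 5 by Dixon's criterion, where 1.6 would be expected by chance at 1 in 20; the sets share values and are not independent. Mouse 1 gave 5 of the 7. Its control library had 17.9 FPKM of Ptges2 against 14.0 to 14.9 in the other mice, 35.9 FPKM of Ptges3 against 59.6 to 68.0, and 2.43 FPKM of Ptger1 against 1.31 to 1.54. Its differences between hemispheres were 0.65 for Ptges3, against -0.14 to 0.09 in the others, and -0.087 for Ptger4, against 0.077 to 0.17. The control library of mouse 1 is also the one that deviated most from its group over all loci, and its part in these values was not tested.

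Mouse 3 had 37.0 FPKM of Ptgs2 in cocktail, where the others had 44.1 to 46.5. Mouse 2 had a Ptger3 difference of -0.61, against -0.08 to 0.20 in the others.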

How the results depend on the processing

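The Ptgs2 difference stayed between 0.94 and 1.11 with a mouse left out, which describes a gene chosen for this contrast. Of 99 values of the members under alternatives, 0 moved by more than the SD between mice. That count was largely fixed in advance, so nothing is read from it. Leaving out a single mouse cannot move a mean that far, and a changed filter or no mouse block leaves a difference as it was. The count of members called was 1 to 2 with a mouse left out; 2 came without mouse 3, where Hpgd was added. The count over all loci was 180. It was 88 with no replicate block, 118 with voom on recovered reads, and 104 to 181 with a mouse left out, the lowest without mouse 4. The hemispheres are paired by animal, and without the block Zfp36 was the single named pathway gene that was lost. The 5 calls among the other pathway genes became 6 with median-of-ratios scaling, with Zfp36l1 added, 3 with voom on recovered reads, without Cebpb and Zfp36, and 4 to 5 with a mouse left out. Of the 5 loci nearest to Ptgs2 over 12 libraries, 3 to 5 remained with a mouse left out. Of the 5 over control libraries, 2 remained with a pseudocount of 0.1 and 0 to 2 with a mouse left out. With 5 mice the exact test of the order cannot pass 0.05, so it says nothing of that order. Causes of these changes were not tested. Depth limits Ptger2, at 0 to 5 reads per library, and the other receptors and Hpgd, at 16 to 73.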
